A study of Mus musculus with 3 samples.

Results

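The complement genes described here are 9 components and receptors, C1qa, C1qb, C1qc, C2, C3, C4b, C3ar1, C5ar1 and Serping1, chosen by name and measured by 11 probes among the 38880 of the array. All 9 were among the 19862 named genes with a value on every array. C1qc, C4b and C5ar1 appear on the array under the older symbols C1qg, C4 and C5r1. RNA came from the dissected cerebellum of C57Bl/6 mice at postnatal day 10, and 3 arrays with 2 dyes each compared a conditional knockout (cKO) of Smarca5, the gene of an ISWI chromatin remodeling ATPase, with wild type. The cKO RNA carried Cy5 on replicates 1 and 2 and Cy3 on replicate 3, where the dyes were flipped. The labels state no Cre line, no cell type for the deletion and no pooling of animals, and nothing says that the 3 pairs were separate animals, so p-values measure a spread between arrays that may be technical. Each value is the deposited log ratio of cKO over wild type, read as log2 since the base is unstated, so that 0 means no difference from the wild type and fold changes hold only for that base. The arrays gave ratios and no intensities here, so neither the level of a gene nor the presence of the tissue's defining markers could be checked. In whole tissue, a larger number of cells of one type and more RNA per cell cannot be told apart.

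Complement is a cascade of proteins that tags targets for removal. The classical pathway starts when C1q, built from the products of C1qa, C1qb and C1qc, binds a target and its partner proteases cleave C4 and C2, and the enzyme formed from these cleaves C3. Fragments of C3 are read by phagocytes, and the small fragments C3a and C5a act on the receptors encoded by C3ar1 and C5ar1. In the brain, microglia are the main source of C1q, and C1q and C3 take part in the removal of synapses during development.

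Of the 9 members, 5 were above 0 on all 3 arrays, namely C1qa, C1qb, C1qc, C4b and C3ar1, 4 changed sign between arrays and 0 were below 0 on all arrays. Over all 28203 features tested, 22.1% were above 0 on all 3 arrays and 21.4% were below. The same 5 members had an unadjusted p under 0.05 in limma, all in the higher direction, where 10.9% of all features did so in the higher and 9.98% in the lower direction. No member reached an adjusted p of 0.05 (limma, Benjamini-Hochberg), and neither did any other feature (0.0%), although 5892 features had an unadjusted p under 0.05. The median of the 9 members was 0.74, against 0.00 over all features.

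**Figure D1:**
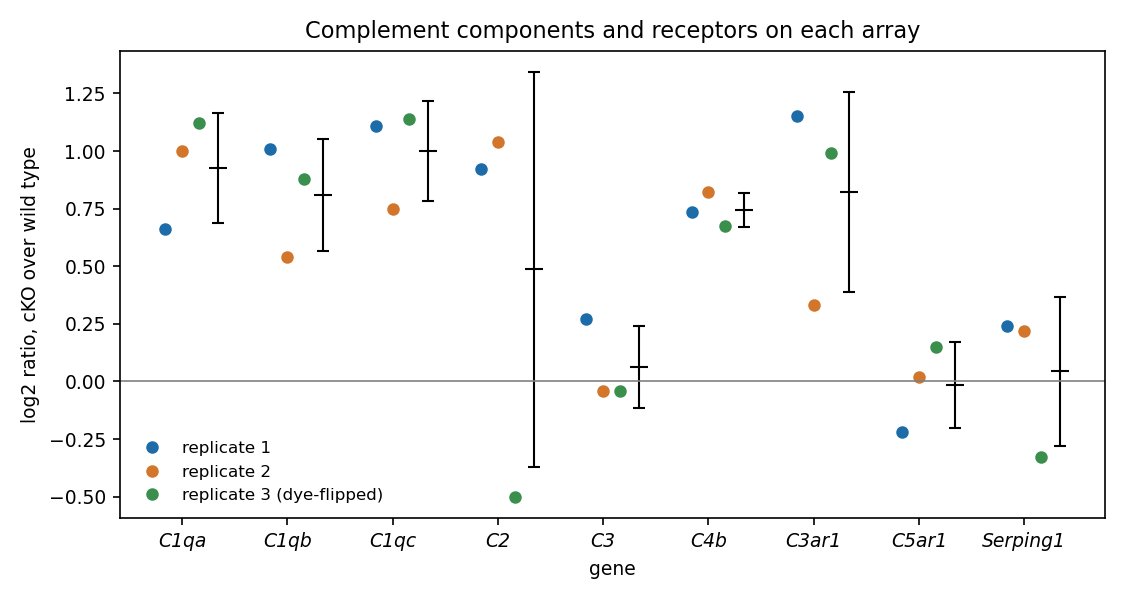
Log2 ratio of cKO over wild type (vertical axis) for each complement gene (horizontal axis), with 1 point per array and the mean ± SD of the 3 arrays beside it. All points of C1qa, C1qb, C1qc, C4b and C3ar1 lie above 0, while C2 has 2 points near 1 and 1 at -0.50.

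The genes of the 3 C1q chains were higher by similar amounts. C1qc, the C chain, had 1.11, 0.75 and 1.14 on replicates 1, 2 and 3, a mean of 1.00 ± 0.22 (SD, n = 3) and a 2.00-fold level in the cKO (limma, adjusted p = 0.0898). C1qa, the A chain, had 0.66, 1.00 and 1.12, a mean of 0.93 ± 0.24, which is 1.90-fold (limma, adjusted p = 0.0959). C1qb, the B chain, had 1.01, 0.54 and 0.88, a mean of 0.81 ± 0.24, which is 1.75-fold (limma, adjusted p = 0.108). No array gave any chain a value near 0, and the order of the chains differed between the arrays: C1qa was the lowest on replicate 1 and the highest on replicate 2. Among named genes, C1qc stood at percentile 97.7 of the mean ratio, C1qa at percentile 97.1 and C1qb at percentile 95.6. Each chain rests on 1 probe, as does every other member except C4b.

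The 3 C1q genes lie next to each other on chromosome 4. In the order of the RefSeq gene table, the nearest measured gene on the side of C1qb, Ephb2, an ephrin receptor, was below 0 on all arrays at -0.87 ± 0.17 (limma, adjusted p = 0.0932). Beyond it, Tex46 had -0.68 ± 0.43 and Kdm1a, a histone demethylase, had a mean of 0 within 2 decimals, with values from -0.13 to 0.15. On the side of C1qa, Epha8, another ephrin receptor, had -0.22 ± 0.50, with -0.80 on replicate 3 alone away from 0. Zbtb40 had -0.09 ± 0.11, and Wnt4, a secreted signal, was above 0 on all arrays at 0.78 ± 0.26. The values above 0 thus did not extend to the genes directly beside the cluster.

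Promoters of 5 members were matched by symbol in RefSeq sequences of build GRCm38.p6, each running from 250 bases before to 50 bases after the annotated start. Those of C1qb, C1qc and C3ar1, which were above 0 together, are shown 5′ to 3′ on the gene's strand, with capitals marking GAGGAA or its reverse complement, the core bound by PU.1, a transcription factor of the microglial and macrophage lineage.
C1qb, chr4:136886151-136886450, minus strand: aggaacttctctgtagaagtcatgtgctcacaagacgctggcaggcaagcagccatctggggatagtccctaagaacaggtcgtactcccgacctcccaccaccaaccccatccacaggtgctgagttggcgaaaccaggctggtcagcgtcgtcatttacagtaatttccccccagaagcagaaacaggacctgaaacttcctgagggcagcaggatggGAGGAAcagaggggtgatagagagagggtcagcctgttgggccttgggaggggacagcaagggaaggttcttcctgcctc
C1qc, chr4:136892865-136893164, minus strand: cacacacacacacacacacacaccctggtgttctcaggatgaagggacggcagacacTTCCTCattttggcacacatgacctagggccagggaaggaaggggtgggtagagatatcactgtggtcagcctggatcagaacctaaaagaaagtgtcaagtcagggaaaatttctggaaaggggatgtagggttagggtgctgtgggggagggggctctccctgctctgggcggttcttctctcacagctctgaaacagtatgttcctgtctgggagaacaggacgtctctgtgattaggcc
C3ar1, chr6:122856108-122856407, minus strand: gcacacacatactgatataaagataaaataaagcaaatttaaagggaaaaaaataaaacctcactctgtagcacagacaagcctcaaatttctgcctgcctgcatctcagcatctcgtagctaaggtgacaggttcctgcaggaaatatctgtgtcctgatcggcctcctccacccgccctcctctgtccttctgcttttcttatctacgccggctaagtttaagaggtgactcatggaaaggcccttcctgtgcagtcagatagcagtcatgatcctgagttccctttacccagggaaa
The C1qb window held 1 match, at -30 to -25 from the start, and the C1qc window held 1 on the opposite strand, at -193 to -188. The windows of C3ar1, C3 and C5ar1 held 0. A match was found in 28.3% of the 27025 promoters of the table, searched on both strands. An element bound by interferon regulatory factors, GAAA followed after any 2 bases by another GAAA, was in 3.49% of promoters and in 0 of the 5 windows. The NF-kB consensus, present in 4.35% of promoters, matched the C1qc window once, at -41 to -32. TTNNGCAA, a core of C/EBP factors, was in 10.8% of promoters and matched the C3 window once, at -45 to -38. No 2 of these matches overlapped. These matches describe letters in a window and not binding.

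C4b encodes complement C4, which C1s cleaves and which attaches to the target. Its average over 3 probes was 0.73, 0.82 and 0.68, a mean of 0.74 ± 0.07 and 1.68-fold (limma, adjusted p = 0.0949). This small spread between arrays hid a large disagreement between probes. The first probe had 1.80, 1.74 and 1.71, a mean of 1.75 ± 0.05 (limma over all probes, adjusted p = 0.0775). The second had 1.15, 2.14 and 0.79, a mean of 1.36 ± 0.70 (limma, adjusted p = 0.119). The third was below 0 on every array, at -0.75, -1.41 and -0.47, a mean of -0.88 ± 0.48 (limma, adjusted p = 0.145). The second probe was highest, and the third lowest, on replicate 2, so their deviations offset each other in the average. With the median of the probes in place of their mean, C4b had 1.23 (limma, adjusted p = 0.107).

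C4a, a near-identical neighbour of C4b on chromosome 17 that the array lists as Slp, had 3 probes of its own. Their average was 1.49, 1.71 and 1.31, a mean of 1.50 ± 0.20 (limma, adjusted p = 0.0840), above that of C4b on every array. Its probes had 1.76 ± 0.32, 1.74 ± 0.33 and 1.01 ± 0.11. Of the 6 probes of the 2 genes, 5 were above 0 on all arrays and 1 was below. C4 is a former name of both genes, and the array's C4 probes were read as C4b because Slp stands apart. Probe sequences were not used here, so which gene each probe measured is uncertain, and the ratios of C4a and C4b cannot be taken as separate. The measured genes around C4b did not share the value: Tnxb, Atf6b and Fkbpl on one side had 0.15 ± 0.33, 0.08 ± 0.42 and 0.07 ± 0.23, with no gene on 1 side of 0 on all arrays. On the other side Cyp21a1, a steroid hydroxylase, which lies between C4b and C4a, was below 0 on all arrays at -0.55 ± 0.35, and Stk19, beyond C4a, had -0.05 ± 0.04.

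**Figure D2:**
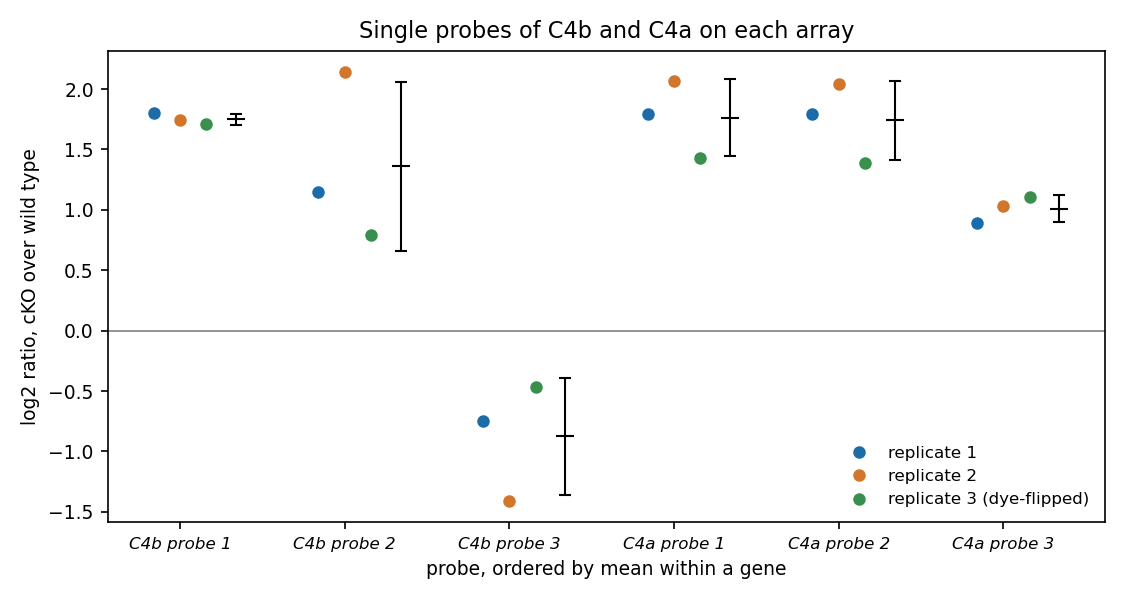
Log2 ratio of cKO over wild type (vertical axis) for the 3 probes of C4b and the 3 of C4a (horizontal axis, ordered by mean within a gene), with 1 point per array and the mean ± SD beside it. The third C4b probe lies below 0 on all arrays, from -1.41 to -0.47, and the other 5 probes lie between 0.79 and 2.14.

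C2, the protease that joins C4 in the enzyme that cleaves C3, differed by array. It had 0.92 on replicate 1 and 1.04 on replicate 2 but -0.50 on replicate 3, the dye-flipped array, giving a mean of 0.49 ± 0.86 (limma, adjusted p = 0.523). Without replicate 3 its mean was 0.98, without replicate 2 0.21 and with a dye term 0.24, so its value rests on which arrays are used. The part of the dye in this was not tested beyond that term.

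C3, on which all pathways converge, showed no difference beyond its spread. Its values were 0.27, -0.04 and -0.04, with a mean of 0.06 ± 0.18 (limma, adjusted p = 0.844), and the sign was that of replicate 1 alone. Serping1, which encodes the C1 inhibitor that blocks C1r and C1s, had 0.24, 0.22 and -0.33, a mean of 0.04 ± 0.32 (limma, adjusted p = 0.922). C3 and Serping1 stood at percentiles 56.5 and 54.0 of named genes. Each rests on 1 probe, and without intensities a dim probe could not be told from an unchanged gene.

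The 2 anaphylatoxin receptors had unlike values. C3ar1, the receptor of C3a, had 1.15, 0.33 and 0.99, a mean of 0.82 ± 0.43, which is 1.77-fold (limma, adjusted p = 0.150). Replicate 2 was well below the others for C3ar1, and without it the mean was 1.07. C5ar1, the receptor of C5a, had -0.22, 0.02 and 0.15, a mean of -0.02 ± 0.19 (limma, adjusted p = 0.963). The difference C3ar1 minus C5ar1 was 1.37, 0.31 and 0.84 on the 3 arrays, 0.84 ± 0.53. Both receptors rest on 1 probe each, with the same limit.

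All 36 pairs of members were compared by the difference of their ratios within each array. With limma's spread pooled over the pairs, 12 of 36 passed at an adjusted p of 0.05 (Benjamini-Hochberg over the pairs). Each of these 12 set C1qa, C1qb, C1qc, C4b or C3ar1 above C3, C5ar1 or Serping1. The 15 pairs that join these sets had differences from 0.68 to 1.02, but the sets were formed after these values were seen, so this range is a description. Over all 36 pairs, 16 had the same sign on all arrays. The largest was C1qc over C5ar1 at 1.02 ± 0.30 (limma, adjusted p = 0.0382). The 10 pairs among C1qa, C1qb, C1qc, C4b and C3ar1 differed by 0.26 at most, and 0 passed (limma, smallest adjusted p = 0.562), which does not show that they are equal. The limit of 0.26 holds only with C4b as the average of its disagreeing probes. With their median C4b had 1.23, above C1qc at 1.00, C1qa at 0.93, C3ar1 at 0.82 and C1qb at 0.81. No pair with C2 passed (limma, smallest adjusted p = 0.322). The pairs share genes and arrays, so these p-values are not independent, and the calls are fragile. Without moderation 1 of 36 passed, and 0 passed without replicate 1, without replicate 2 or with the arrays scaled to 1 spread.

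Of 52 further complement genes listed, 47 were measured, of which 10 were above 0 and 4 below 0 on all arrays. At an unadjusted p under 0.05 in limma, 6 were higher and 3 lower, and the median was 0.05. Shares of this size lie near or below those over all features, which were 10.9% higher and 9.98% lower at that p, and 22.1% above and 21.4% below 0 on all arrays, so they are no result about these genes. None passed the adjusted threshold over all features. The shares over all features also stand beside the counts of each complement list below, and no list was tested. With only named genes in the fit and its adjustment, C4a (limma, adjusted p = 0.0465) and Cfp (limma, adjusted p = 0.0481) passed, when 2.31% of the 19862 named genes did, and 0 of the 9 members passed.

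Among genes that start the classical and lectin pathways, 1 of 12 was above and 1 below 0 on all arrays. Masp2, a protease of the lectin pathway, had -0.65, -0.27 and -0.52, a mean of -0.48 ± 0.19 (limma, adjusted p = 0.178). Of its 2 probes, the one listed as MAp19 had -0.45 ± 0.17 and the one listed as Masp2 -0.51 ± 0.22. Masp1, another protease of that pathway named after its value was seen, changed sign between arrays, at -0.32 ± 0.37. Colec12, a scavenger collectin, had 0.36 ± 0.29 (limma, adjusted p = 0.319). C1ra and C1s1, the proteases bound to C1q and named here after their values were seen, had -0.16 ± 0.18 and 0.07 ± 0.24. Their probes disagreed, with means from -0.83 to 0.24 for C1ra and from -0.35 to 0.56 for C1s1. In the alternative pathway, Cfp, which encodes properdin, the stabiliser of its C3-cleaving enzyme, was below 0 with little spread. It had -0.80, -0.86 and -0.85, a mean of -0.84 ± 0.03 (limma, adjusted p = 0.0861). Cfb and Cfd, its other components, named after their values were seen, changed sign between arrays, at 0.14 ± 0.56 and -0.11 ± 0.96.

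Of the terminal components, which form the membrane pore, 1 of 6 was above and 1 below 0 on all arrays and 0 had an unadjusted p under 0.05 in limma. Hc, which encodes C5, had -0.33 ± 0.35 and C7 had 0.17 ± 0.06. Fluid-phase regulators were near 0, with 0 of 7 at an unadjusted p under 0.05 in limma. Vtn, which encodes vitronectin, had 0.24 ± 0.27 and C4bp, the C4b-binding protein, 0.22 ± 0.62. Of 8 membrane regulators, 2 were higher and 1 lower at an unadjusted p under 0.05 in limma. Susd4, a regulator with complement control domains, had 0.70, 1.00 and 0.63, a mean of 0.78 ± 0.20 (limma, adjusted p = 0.106). Cd55, which breaks up the C3-cleaving enzymes, had 0.97, 0.37 and 1.20, a mean of 0.85 ± 0.43 (limma, adjusted p = 0.145). Cd59a, an inhibitor of pore formation named after its value was seen, had -1.15, -0.19 and -0.91, a mean of -0.75 ± 0.50 (limma, adjusted p = 0.196).

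Of 10 other receptors, 4 were above and 0 below 0 on all arrays, against 22.1% and 21.4% of all features, with a median of 0.15. Lair1, an inhibitory receptor that can bind C1q, had 1.06, 1.69 and 0.92, a mean of 1.22 ± 0.41 (limma, adjusted p = 0.0964). Itgax, a chain of complement receptor CR4, had 0.90, 1.50 and 2.35, a mean of 1.58 ± 0.73 (limma, adjusted p = 0.114). Itgb2, the chain it pairs with, and Itgam, the chain that pairs with Itgb2 in CR3, were named after their values were seen and had -0.16 ± 0.24 and 0.33 ± 0.26. Vsig4, a macrophage receptor of C3 fragments named on the same basis, had 0.89, 1.93 and 0.55, a mean of 1.12 ± 0.72 (limma, adjusted p = 0.169).

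**Figure D3:**
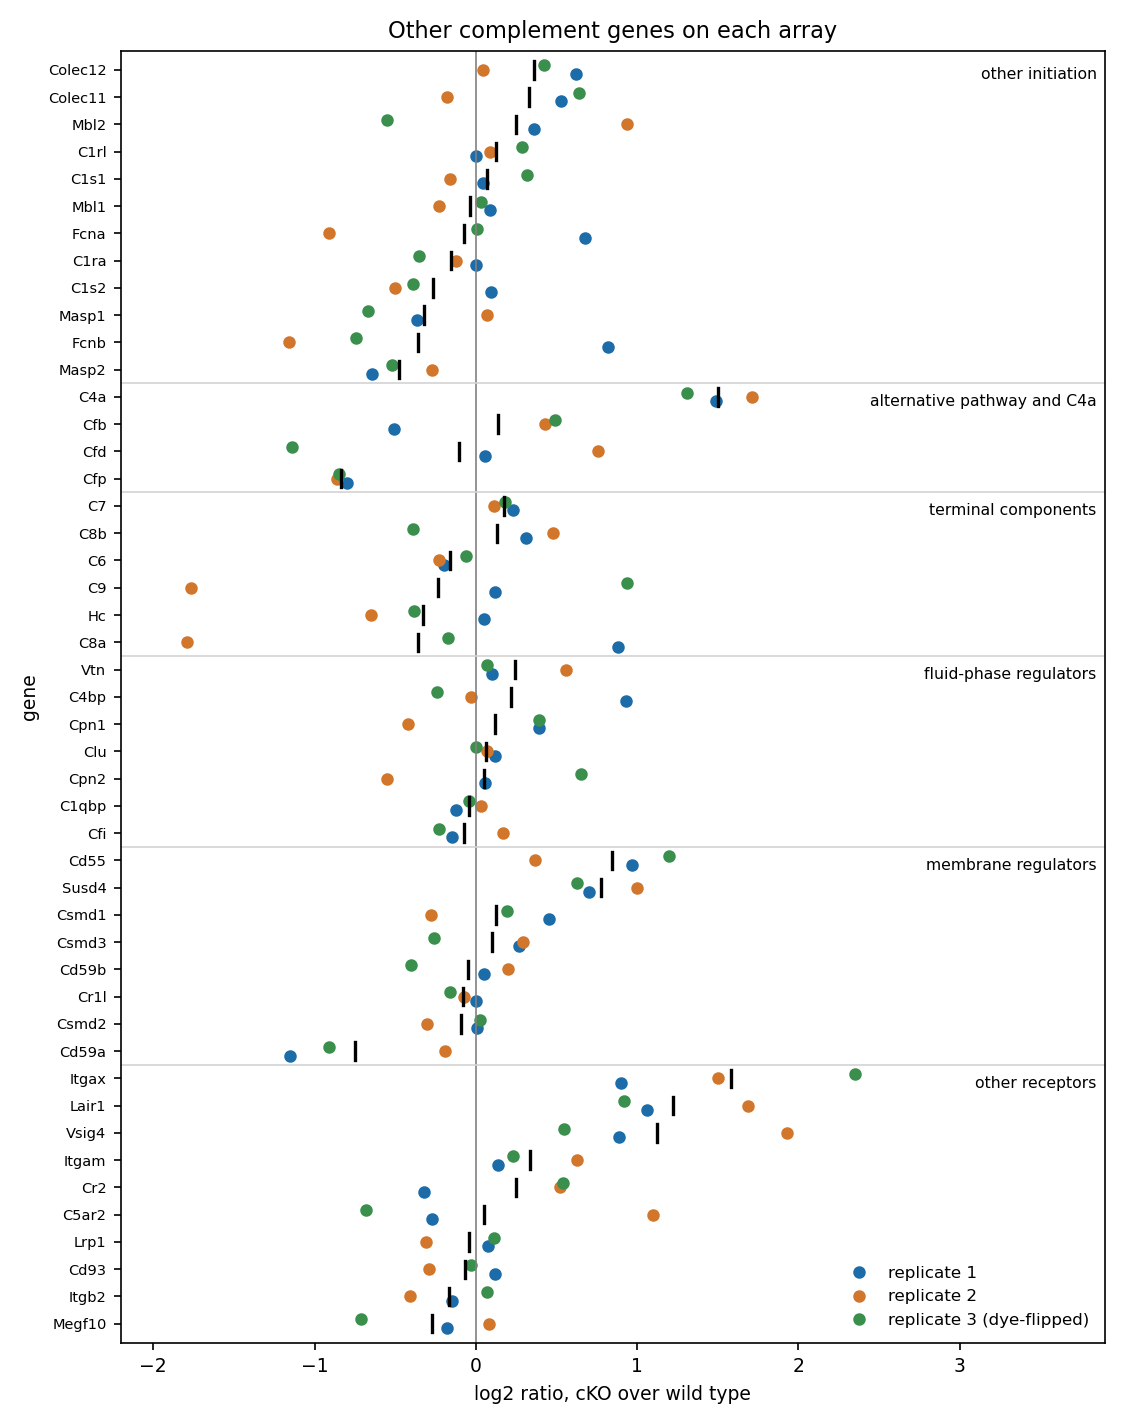
Log2 ratio of cKO over wild type (horizontal axis) for 47 further complement genes (vertical axis) grouped by role, with 1 point per array and a bar at the mean. C4a, Lair1, Itgax and Vsig4 lie furthest above 0 and Cfp has the lowest mean with its points close together, while most terminal components have points on both sides of 0.

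Markers of microglia were above 0 by similar amounts as the C1q genes. Of 19 measured microglial and macrophage markers other than complement, 18 were above 0 on all arrays, against 22.1% of all features. At an unadjusted p under 0.05 in limma 16 were higher, against 10.9% of all features, and the median of the 19 was 0.86. The mean of these markers was 0.78, 0.88 and 0.85 on replicates 1, 2 and 3. That of the 3 C1q genes was 0.93, 0.76 and 1.05, and the difference was 0.15, -0.12 and 0.20. It changed sign between arrays and was small beside the ratios themselves. Aif1, which encodes Iba1, had 1.23 ± 0.19 and Fcer1g, an Fc receptor adaptor, 1.17 ± 0.11. Lower values, named after they were seen, were those of Spi1, which encodes PU.1, at 0.03, -0.11 and 0.45, of Tmem119 at 0.32 ± 0.15 and of Cd53 at 0.33 ± 0.18, all with an unadjusted p above 0.05 in limma. The 2 probes of Cd53 disagreed, at 0.81 ± 0.42 and -0.16 ± 0.18. The part of the microglial markers in the C1q, C4b and C3ar1 values was not tested.

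Markers of other immune cells had less even values. Over all features, 22.1% were above and 21.4% below 0 on all arrays, shares to set beside the counts here and in the marker lists that follow. No list was tested, so a count near these shares is no result about its cell type. Of 7 markers of border macrophages, 4 were above and 1 below 0 on all arrays with a median of 0.27, with Mrc1 at 0.27 ± 0.35 and Pf4 at 0.85 ± 0.23. The 1 below, named after its value was seen, was Lyve1 at -0.68, -0.49 and -0.01. Of 8 monocyte and neutrophil markers, 4 were above 0 on all arrays, and their mean was 0.43, 1.46 and 0.40, highest on replicate 2. On that array C2 and the average of the C4b probes were also highest, C1qb, C1qc and C3ar1 were lowest, and C1qa lay between its other values. Of the single C4b probes, the second was highest on that array, the third lowest and the first between its other values. S100a8 had 0.78 ± 0.89, with -0.25 on replicate 3, and Plac8 had 0.83 ± 0.63. Of 9 lymphocyte markers, 4 were above and 1 below 0 on all arrays, with a median of 0.16, Cd3e at 0.93 ± 0.76 and Ms4a1 at -1.28 ± 0.81. Interferon-responsive genes, a class to which several complement genes belong, had 10 of 14 above and 1 below 0 on all arrays and a median of 0.58, with Ifit1 at 1.53 ± 0.87 and Ifit2 at 1.45 ± 0.31. The 1 below, Stat2, a transcription factor of the interferon response named after its value was seen, had -1.11, -0.59 and -0.78.

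Astrocytes, fibroblasts and endothelium can also express C3, C4b or Serping1. Of 13 astrocyte markers, 8 were above and 2 below 0 on all arrays, with a median of 0.12, Gfap at 0.46 ± 0.14 and Gdf10 at -0.69 ± 0.17. The 2 probes of Gdf10 lay apart, with means of -0.18 and -1.19. Of 11 markers of meninges and fibroblasts, 8 were above and 1 below 0 on all arrays with a median of 0.44, with Dcn at 0.16 ± 0.16 and Igfbp2 at 0.73 ± 0.25. The 1 below, named after its value was seen, was Lum at -0.25, -0.13 and -1.20. Of 10 endothelial markers, 3 were above and 4 below 0 on all arrays, with a median of 0.09, Pecam1 at -0.11 ± 0.03 and Esam at -0.30 ± 0.10. The 3 above, named after their values were seen, were Kdr at 0.16 ± 0.10, Tek at 0.25 ± 0.25 and Vwf at 0.37 ± 0.31. Choroid plexus markers had 6 of 9 above and 1 below 0 on all arrays and a median of 0.56, with Ttr at 0.02 ± 0.03 and Clic6 at 0.65 ± 0.11. The 1 below, named after its value was seen, was Otx2 at -0.53, -0.50 and -0.32. Red cell markers had a median of -0.13 over 6 genes, and their array means of -0.87, 0.64 and -0.90 set replicate 2 apart, with Hba-a1 at -0.10 ± 0.08 and Hbb-y at -1.02 ± 0.96. Hbb-y, Alas2 and Slc4a1 differed most between arrays, while Hba-a1, Hbb-b1 and Hbb-b2 lay from -0.29 to 0.07. Apart from Hba-a1 and Hbb-y, these were named after their values were seen. The part of these lists in the members' values was not tested.

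The medians of granule neuron markers and of brainstem and midbrain neuron markers lay further from 0 than any complement member. Of 12 granule neuron markers, 11 were below 0 on all arrays with a median of -1.41, with Gabra6 at -1.34 ± 0.58 and Etv1 at -1.96 ± 0.18. All 8 measured markers of brainstem and midbrain neurons, of which 6 mark monoamine neurons, the name of the row in the plot of lists, and Chat and Slc18a3 mark acetylcholine neurons, were above 0 on all arrays, with a median of 2.35, Th at 1.91 ± 0.72 and Ddc at 1.83 ± 0.13. The lowest was Chat at 0.225 ± 0.143. Its 2 probes disagreed, at 0.65 ± 0.31 and -0.20 ± 0.18, with the second below 0 on every array. Of 12 oligodendrocyte markers, 7 were above and 2 below 0 on all arrays, with a median of 0.35, Pdgfra at 1.01 ± 0.15 and Opalin at 1.20 ± 0.17. The 2 below, named after their values were seen, were Cspg4 at -0.30 ± 0.17 and Mog at -0.21 ± 0.09. The probes of Mog disagreed, with means of 0.15, 0.21 and -0.98. Mbp, Mag and Cnp, named on the same basis, lay near 0, at 0.04 ± 0.05, 0.04 ± 0.07 and 0.06 ± 0.10. The differences in these 3 lists stood in the same arrays as the complement values, and their part in them was not tested. Smarca5 itself was lower on every array, at -0.86 ± 0.11 (limma, adjusted p = 0.0886). Its 2 probes were below 0 on every array but lay apart. The probe listed as Smarca5 had -1.28 ± 0.15 and the one listed as D030040M08Rik had -0.44 ± 0.26.

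**Figure D4:**
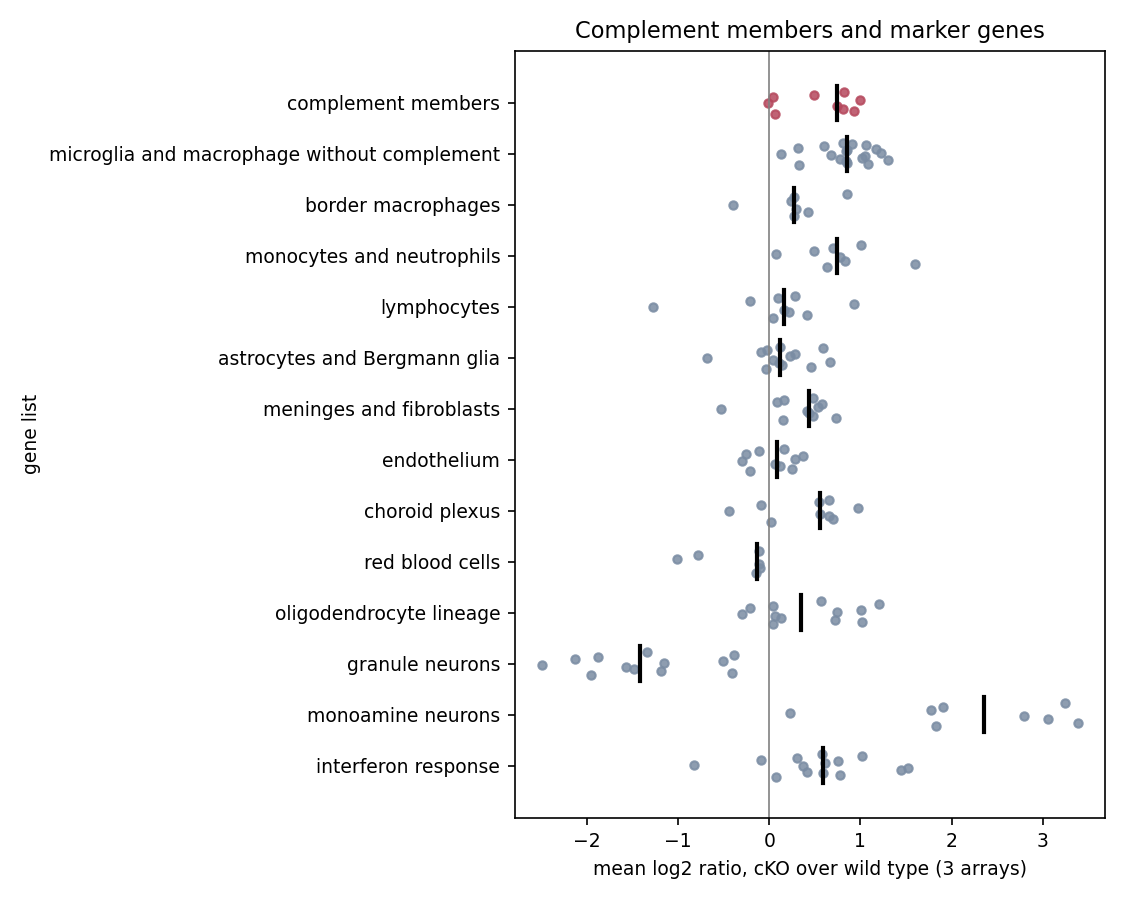
Mean log2 ratio of cKO over wild type over 3 arrays (horizontal axis) for the 9 complement members and for marker genes of cell types and the interferon response (vertical axis), with 1 point per gene and a bar at the list's median. C3, C5ar1 and Serping1 lie near 0, C2 lies at 0.49, and the other 5 members lie from 0.74 to 1.00, where the median of the microglial markers is 0.86.

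The named genes whose 3 array values lay nearest to the mean of the C1q genes, by Euclidean distance over the 3 arrays, were Olfr630, Nrp, Mrgpre, Adcy2 and Ccno, with distances from 0.05 to 0.11. Adcy2, an adenylate cyclase, had 0.95, 0.82 and 0.96. With 3 arrays such likeness is a description of size and not of shared behaviour.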

How the data were processed

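Each array gave 1 deposited log2 ratio per probe (cKO, channel 2, over wild type, channel 1, per the labels). The log base, and how the authors scanned, corrected and normalized the arrays, is not stated in the labels or headers. The median of each array was 0. The direction follows the labels' channels. The sign turned on the dye-flipped array at 47 spots without a gene, which start runs of 810 probes and exceed 5 in size; they were not fitted. Across all other probes Pearson's r was 0.444 between replicates 1 and 2, 0.266 between 1 and 3 and 0.223 between 2 and 3.

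Of 38880 probes, 30457 had 1 symbol in the platform annotation, which is old, 0 several and 8423 none. By a RefSeq table (GRCm38.p6), 19043 matched a current symbol and 11220 a synonym of 1 gene, 191 kept the array's symbol and the 3 C4 probes were set to C4b. Probes of a gene were averaged on each array. The 28203 features present on all 3 arrays were tested against 0 with limma 3.58.1 in R 4.3.3 (lmFit, eBayes; 2 residual and 2.09 prior degrees of freedom), adjusted by Benjamini-Hochberg over all features at 0.05. Scripts were tested on simulated data. Errors are SDs over 3 arrays, whose number limits the precision, and for an averaged gene they leave out the spread between its probes. The exact permutation test of 3 ratios cannot reach this threshold and was not used.

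The members, lists and tests were chosen with earlier results of these data known. Named genes were the 9 members, the 2 of smallest p in each complement list, the first and the smallest-p gene of each marker list, the 3 measured genes on either side of the C1q genes and of C4b, the 5 nearest to C1q, and Smarca5; others are said to be named after their values were seen. Alternatives covered probe averaging, symbols, centring, scaling, a dye term, the sign of replicate 3, moderation, the dye-following spots, unnamed probes and each replicate.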

Additional observations from a re-analysis of the deposited data

How the results depend on the processing

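The means of C1qa, C1qb, C1qc, C4b, C3ar1 and C2 stayed above 0 under the alternatives run for them, and no member passed the adjusted threshold under any. Signs turned for genes near 0. C3 ran from -0.04 (without replicate 1) to 0.115 when 1 replicate was left out. C5ar1 ran from -0.1 to 0.085 (without replicate 1) and had 0.025 with a dye term. Serping1 ran from -0.055 (without replicate 1; -0.045 without replicate 2) to 0.23 and had -0.05 with a dye term. With the sign of replicate 3 turned, C1qa, C1qb, C1qc, C4b and C3ar1 had 0.16 to 0.29. If the deposited values were natural logs, the folds would be 2.53 for C1qa, 2.25 for C1qb, 2.72 for C1qc, 2.1 for C4b, 2.28 for C3ar1 and 1.63 for C2.

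Members higher at an unadjusted p under 0.05 in limma numbered 5. They numbered 1 with the sign of replicate 3 turned and 3 with the array's own symbols, where C1qc, C4b and C5ar1 have no entry. Leaving out 1 replicate gave 4 to 5. Of the members' 11 single probes, 1 was lower, against 0 members. Other complement genes numbered 6 higher and 3 lower of 47. Tested singly, 14 of their probes were higher and 7 lower, a count of probes and not of genes. Of the probes tested, 95 were of Lrp1, named after its value was seen, whose gene average was -0.04. The sign turned gave 1 and 0 genes, the array's symbols 3 higher and a dye term 1 lower. Without 1 replicate, 4 to 7 genes were higher and 1 to 3 lower. Over named genes only, 2 of the other complement genes and 19 marker genes passed the adjusted threshold, against 0. Marker genes numbered 56 higher and 15 lower, and the sign turned gave 1 and 0. Of their single probes, 74 were higher and 23 lower, again a count of probes. Of the 36 pairs, 12 passed, and 7 with the median of probes, 0 with scaling, 19 with a dye term, 0 with the sign turned, 1 without moderation, 4 with robust moderation and 0 to 11 without 1 replicate. The cause of these shifts was not tested. No paired analysis was possible because each array's ratio is itself the paired comparison of cKO with wild type, which the test against 0 uses, and no second group of ratios shares the replicate numbers. Signal over background was not used here, so dim probes could not be set apart.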
